A study of Mus musculus with 8 samples.

Results

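The antioxidant defence genes Sod1, Sod2, Cat, Gpx1, Gclc, Nfe2l2, Keap1, Txnrd1 and Nqo1, together with Txnip, were examined for binding of the glucocorticoid receptor (GR) and of FOXO1 in mouse liver. The 10 genes were given by name, and their sites were found by position alone. Peaks of 6 GR lists were merged into 51431 sites, of which 126 had their centre within 50 kb of the start of a member gene. For 79 of the 126 sites the member was also the nearest protein-coding gene start, and for the remaining sites another gene start was closer. The list of FOXO1 peaks held 20 peaks within the same distance. Distances run from the gene start to the centre of a site, with a minus for upstream.

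All livers came from adult male C57BL/6J mice on regular chow, and GR binding was mapped by chromatin immunoprecipitation and sequencing (ChIP-seq). The control mice (ctrl., labelled NR) had food only during the night. The second group was under caloric restriction (cal. res., labelled CR), to a level that the labels do not give; the study's text points to the stricter of the levels it tried. The last group was night-restricted in its feeding and supplemented with corticosterone (CORT, labelled NR+CORT), the main glucocorticoid of mice, which per the study's methods was injected daily into the abdomen. Each group had 2 GR libraries. A vehicle injection is described in the methods, but the labels do not say whether the ctrl. livers received it. FOXO1 was mapped in cal. res. livers only, and its 2 libraries were merged before peaks were called, so that FOXO1 values carry no replicate spread and cannot be compared between diets. Whole liver was used, so hepatocytes and other liver cells were not separated. All 6 genes checked as landmarks of hepatocytes (Alb, Apoa1, Apob, Hnf4a, Cebpa and Serpina1a) had a GR site held by every group within 50 kb.

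Oxygen-consuming metabolism leaks superoxide. Superoxide dismutases convert it to hydrogen peroxide, Sod1 in the cytosol and Sod2 in mitochondria. Catalase, encoded by Cat, and glutathione peroxidase, encoded by Gpx1, then remove the peroxide. Gclc encodes the catalytic subunit of the enzyme that starts glutathione synthesis, and Txnrd1 encodes the reductase that keeps thioredoxin active. Nfe2l2 encodes NRF2, the transcription factor that switches on many of these genes, Keap1 encodes the adaptor that has NRF2 degraded, and Nqo1 is a classical NRF2 target. Txnip encodes an arrestin-like protein that binds thioredoxin and limits glucose uptake. GR binds DNA when a glucocorticoid is present, and FOXO1 enters the nucleus when insulin is low.

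The sequences that carry the main results are printed here. They are 200 bases long, read on the plus strand of mm10 from the RefSeq assembly of the same build, and capitals mark matches to the motifs searched. The motifs were a full GR element (GNACA and TGTNC with 3 bases between), a GR hexamer (AGAACA), a FOX motif (TGTTTAC), an antioxidant response element (TGACNNNGC), a C/EBP motif (TTGCNNAA) and an E-box (CACGTG), each on both strands. The Txnip stretch ends 1 base before the gene start and holds the summit of the strongest FOXO1 peak of the 10 genes. The Gclc and Gpx1 windows are centred on the GR summit of the highest-ranked site of each gene, the Cat window on the site with the largest fitted difference between diets, and the Keap1 window on a FOXO1 summit that no GR list shares.
Txnip, upstream of the gene start, chr3:96557757-96557956: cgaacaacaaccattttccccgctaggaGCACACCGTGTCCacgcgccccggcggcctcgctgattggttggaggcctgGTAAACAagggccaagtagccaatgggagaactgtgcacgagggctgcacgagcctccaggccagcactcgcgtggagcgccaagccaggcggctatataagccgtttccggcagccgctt
Txnip, site at -2.66 kb, chr3:96555213-96555412: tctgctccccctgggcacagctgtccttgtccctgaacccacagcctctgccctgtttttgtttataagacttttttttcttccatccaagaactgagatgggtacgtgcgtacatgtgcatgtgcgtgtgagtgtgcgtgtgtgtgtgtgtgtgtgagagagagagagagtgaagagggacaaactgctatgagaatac
Gclc, site at -9.45 kb, chr9:77744937-77745136: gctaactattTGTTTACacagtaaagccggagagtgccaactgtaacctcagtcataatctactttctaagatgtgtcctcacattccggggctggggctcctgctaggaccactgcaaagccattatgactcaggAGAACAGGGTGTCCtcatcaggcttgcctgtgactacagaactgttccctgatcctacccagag
Cat, site at -7.62 kb, chr2:103492637-103492836: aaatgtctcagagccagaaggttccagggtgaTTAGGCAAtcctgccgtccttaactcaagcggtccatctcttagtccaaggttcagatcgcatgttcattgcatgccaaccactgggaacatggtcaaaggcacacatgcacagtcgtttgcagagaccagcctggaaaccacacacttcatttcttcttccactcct
Gpx1, site at +3.69 kb, chr9:108342364-108342563: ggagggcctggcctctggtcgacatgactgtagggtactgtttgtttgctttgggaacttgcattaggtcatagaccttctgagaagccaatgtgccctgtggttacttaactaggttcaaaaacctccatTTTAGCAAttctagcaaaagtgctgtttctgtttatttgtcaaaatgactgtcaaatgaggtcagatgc
Keap1, FOXO1 peak at -2.2 kb, chr9:21241459-21241658: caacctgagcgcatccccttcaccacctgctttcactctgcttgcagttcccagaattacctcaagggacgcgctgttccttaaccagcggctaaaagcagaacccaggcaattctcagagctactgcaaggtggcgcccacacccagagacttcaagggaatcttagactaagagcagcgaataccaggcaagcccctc
The Txnip stretch carried a GR element, GCACACCGTGTCC, and nearer to the gene a FOX match on the minus strand, GTAAACA, which lay 15 bp from the FOXO1 summit. In the Gclc window a FOX match and a GR element, GAACAGGGTGTCC, were found together. The GR element, which overlapped a hexamer match, lay 6 bp from the FOXO1 summit, and the FOX match lay 136 bp from it. Windows holding both motifs were rare: 57 of 51428 sites (0.111%) had them, among them 2 of the 126 member sites. A GR element, with or without a FOX match, was found at 4 member sites (3.17%), against 1.89% of all sites. Besides Txnip and Gclc these were a site at +29.1 kb of Cat and a site at -16.2 kb of Nfe2l2. The hexamer was matched at 20 member sites (15.9%), against 18.4% of all sites, and the antioxidant response element at 15 (11.9%), against 9.97%. C/EBP matches were present at 19 member sites (15.1%, the same percentage as in all sites), and E-boxes at 4 (3.17%, against 4.72%). FOX matches were seen at 3 of the 18 member sites that overlapped FOXO1 and at 0 of the other 108, and over all sites the shares were 13.9% and 3.79%.

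The 6 GR lists differed in length. Ctrl. replicate 1 held 36234 distinct regions and ctrl. replicate 2 only 12458. For cal. res. these were 22707 and 18747, with 29473 and 39136 for CORT. Read totals were not analysed here, and whether these numbers follow depth was not tested. A site absent from a list was not called there, which is not the same as unbound. The library names fall into 2 styles: ctrl. replicate 2 and both cal. res. libraries share the first, and ctrl. replicate 1 and both CORT libraries the other. What a style stands for is not given in the labels, and in the comparison of cal. res. with CORT it cannot be told apart from the group.

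At the 126 member sites the number with a peak followed the length of the lists. Peaks were found at 91 sites in ctrl. replicate 1 and at 31 in ctrl. replicate 2. The cal. res. libraries had peaks at 55 and 48 of them, and the CORT libraries at 72 and 107. The ctrl. libraries therefore lay on both sides of the cal. res. libraries, and the highest count was that of the longest list, CORT replicate 2. A group is said to hold a site if peaks were called there in each of its 2 libraries. On that rule ctrl. held 29 member sites (23.0%, against 21.4% of all sites), cal. res. 42 (33.3%, against 27.9%) and CORT 66 (52.4%, against 43.7%). All 3 groups held the same 24 sites, and 15.7% of all sites were so held. The order of the groups was not stable to list length. With each list reduced to its 12458 regions of smallest p, 57 member sites were left, of which ctrl. held 22, cal. res. 27 and CORT 24.

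**Figure D1:**
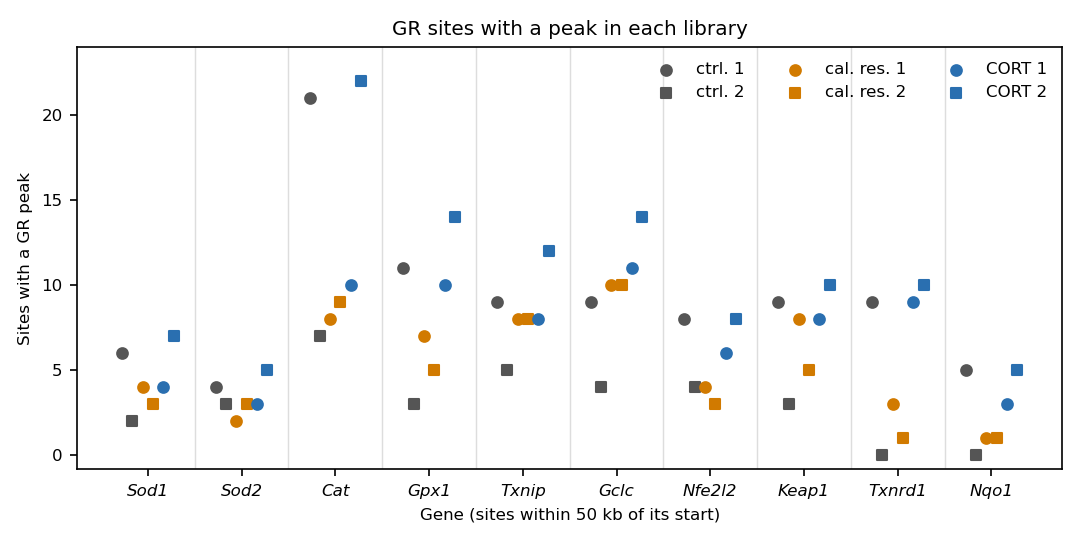
Number of sites with a GR peak (vertical axis) within 50 kb of the start of each of the 10 genes, with 1 point per library, circles for replicate 1 and squares for replicate 2. The long lists, ctrl. 1 and CORT 2, are at the top for Cat with 21 and 22 sites, and ctrl. 2 had no peak at Txnrd1 or Nqo1.

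For single genes the difference between groups could not pass a test. An exact two-sided permutation test over libraries, run for 10 genes and 3 pairs of groups, cannot give a p below 0.333 with 2 libraries against 2, and 0.333 was also the smallest value found. It was reached for Cat, Gpx1, Nfe2l2, Txnrd1 and Nqo1 between cal. res. and CORT, and for Gclc in all 3 comparisons, with 9 and 4 sites for ctrl., 10 and 10 for cal. res. and 11 and 14 for CORT. Gclc was thus the only member at which no pair of groups had overlapping counts. The share of all coding genes with such counts was not computed, and both CORT lists were longer than both cal. res. lists. These counts are therefore not shown to be particular to the members.

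Caloric restriction was compared with night-restricted feeding first. Both cal. res. libraries had a peak and neither ctrl. library had one at 2 member sites, or 1.59% against 0.842% of all sites. They were the Sod1 site at -3.08 kb, at percentiles 0.628 and 47.6, and the Gclc site at -47.7 kb, at percentiles 58.5 and 66.3. A percentile is the rank of a region's fold enrichment within its own list, from 0 for the weakest to 100 for the strongest region. The opposite pattern, with peaks in both ctrl. libraries and in no cal. res. library, was seen at 0 member sites, against 1.75% of all sites. Within the name style that cal. res. shares with ctrl. replicate 2, 16 sites had a peak in both cal. res. libraries and not in that ctrl. library (12.7%, against 11.4%), and 1 had the reverse (0.794%, against 2.35%). The direction turned under another rule. With a peak in either library of a group enough, 4 member sites were seen in cal. res. alone (3.17%, against 5.55%) and 36 in ctrl. alone (28.6%, against 28% of all sites). With ctrl. replicate 2 left out, 3 member sites had peaks in both cal. res. libraries alone and 35 a peak in ctrl. replicate 1 alone. Over all sites 28.4% differed on that rule, both directions together. It asks for a peak in 1 ctrl. library but in both cal. res. libraries, so these counts give no direction.

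CORT was then compared with ctrl. on the same rule. Peaks in both CORT libraries and in no ctrl. library were found at 7 member sites, or 5.56% against 4.28% of all sites, and the reverse at 0 (0.284% of all sites). The 7 sites were those of Sod1 at -4.01 and -3.08 kb, Gpx1 at -13 kb, Gclc at -10.6 kb, Nfe2l2 at +21.1 kb, Keap1 at +18.4 kb and Txnrd1 at -27.5 kb. The Keap1 site stood at percentile 51.8 in CORT replicate 1 and 73.9 in CORT replicate 2, and the Gpx1 site, inside an intron of Rhoa, at 79.2 and 24.4. The others ranked between 5.16 and 59.1 in these libraries. Within the name style shared with ctrl. replicate 1, 8 member sites had peaks in both CORT libraries and not in that ctrl. library (6.35%, against 4.62%). The reverse, a peak in ctrl. replicate 1 and in no CORT library, was found there at 12 sites (9.52%, against 13.5%). It asks for a peak in 1 library and the first count for peaks in 2, so these counts give no direction.

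Between cal. res. and CORT, 16 member sites had a peak in both CORT libraries and in neither cal. res. library (12.7%, against 9.72% of all sites), and 0 had the reverse (0.348% of all sites). Of the 16, 5 were at Txnrd1, 4 at Gpx1, 2 at Nqo1 and 1 each at Cat, Txnip, Gclc, Nfe2l2 and Keap1. This direction was not seen in lists of equal length. With 12458 regions in each list, which left 57 member sites, there were 3 in each direction. Over all sites 11.2% differed at that length, both directions together.

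Ranks were compared at the 24 member sites with a peak in all 6 lists, as part of a limma fit on normal scores of the within-list rank over all 8097 such sites. After Benjamini-Hochberg adjustment limma called 0 member sites in each of the 3 comparisons, and 0 of the 8097 sites (0%) overall. At an unadjusted p under 0.05, 4 member sites differed between cal. res. and ctrl. (9.88% of all sites), 0 between CORT and ctrl. (11.3% of all sites) and 3 between cal. res. and CORT (15.8% of all sites). The median difference between cal. res. and ctrl. was 0.055 over the member sites and 0.018 over all sites. For CORT minus ctrl. these medians were -0.039 and -0.011, and for cal. res. minus CORT 0.349 and 0.063. Differences are in units of the standard deviation of the normal scores.

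**Figure D2:**
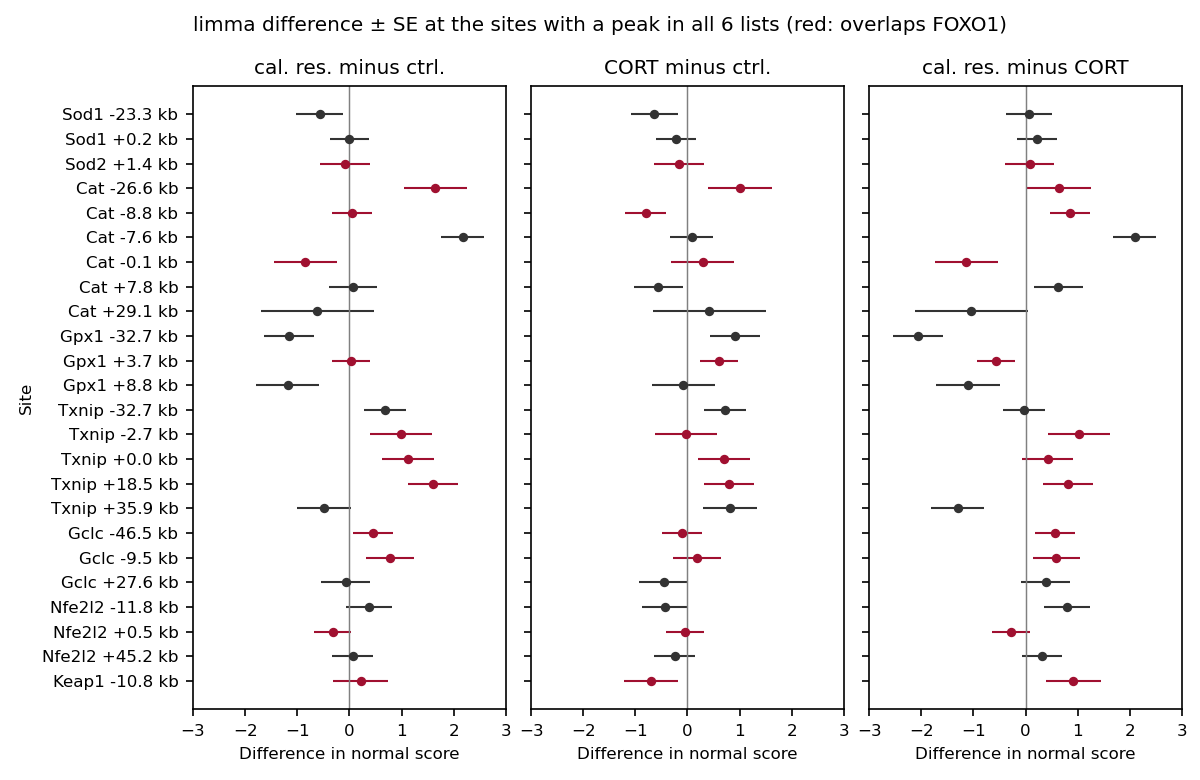
Difference in normal score of the within-list rank (horizontal axis) with its standard error from the limma fit, for the 24 member sites with a peak in all 6 lists (vertical axis, distance from the gene start), with sites that overlap a FOXO1 peak in red. The Cat site at -7.62 kb stands highest in the comparisons of cal. res. with ctrl. and with CORT, at 2.17 and 2.09, and the Gpx1 site at -32.7 kb stands lowest against CORT, at -2.06.

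Txnip had the strongest FOXO1 binding of the 10 genes and highly ranked GR sites beside it. Its gene, ENSMUSG00000038393.14, lies on the plus strand of chr3:96557957-96561883, and 12 GR sites and 5 FOXO1 peaks fell within 50 kb. The promoter site, chr3:96557449-96558527, stood at percentiles 73.0 and 78.4 for ctrl., 94.0 and 93.7 for cal. res. and 86.5 and 96.5 for CORT. Its GR fold enrichment, a ratio of the pileup at the summit to the local background that is comparable only within a library, was 8.26 and 6.11 for ctrl., 18.4 and 14.5 for cal. res. and 14.3 and 25.3 for CORT. By percentile both ctrl. libraries lay below all 4 others. The share of all sites with such an order of the libraries is not given, here or for the sites described below. The fitted difference between cal. res. and ctrl. was 1.13 with a standard error of 0.495 (limma, adjusted p = 0.504), and that between CORT and ctrl. was 0.706 with a standard error of 0.495 (adjusted p = 0.614). Without ctrl. replicate 1 the first of these was 0.526, and 0.524 with the name style as a term. The FOXO1 peak at this promoter had a fold enrichment of 26.4, ranked 57 in a list of 8068 regions, and its summit lay 4 to 35 bp from the GR summits.

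The second Txnip site, at -2.66 kb and outside any annotated gene, was near the top of most lists. It stood at percentiles 96.4 and 32.3 for ctrl., 94.0 and 95.0 for cal. res. and 77.2 and 92.2 for CORT. The ctrl. libraries were the highest and the lowest of all 6, so the difference of 0.985 between cal. res. and ctrl. (standard error 0.593, limma, adjusted p = 0.601) depended on which ctrl. library was used. It was 1.88 without ctrl. replicate 1 and 0.0806 without ctrl. replicate 2. A FOXO1 peak with a fold enrichment of 14.8, in the top 5% of its list at percentile 95.6, covered this site. None of the 6 motifs was matched in its window, which holds a run of alternating g and t.

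Further Txnip sites lay downstream, nearer to other genes. At +18.5 kb, in the promoter of Gm16253, the percentiles were 75.4 and 13.8 for ctrl., 83.7 and 92.5 for cal. res. and 86.5 and 77.6 for CORT. Each ctrl. value was below each of the others, and the difference of cal. res. from ctrl. was 1.61 with a standard error of 0.479 (limma, unadjusted p = 0.0104, adjusted p = 0.421). FOXO1 overlapped it with a fold enrichment of 7.29. At +35.9 kb, in the promoter of Polr3gl, a subunit gene of RNA polymerase III, the order was another: percentiles were 74.3 and 86.7 for ctrl., 60.4 and 64.0 for cal. res. and 93.9 and 96.7 for CORT. There the difference of cal. res. from CORT was -1.30 with a standard error of 0.513 (limma, adjusted p = 0.288), and -2.78 with the name style as a term, and FOXO1 had no peak. A FOXO1 peak of nearly the same strength as that at -2.66 kb lay at +22.4 kb, in an exon, with a fold enrichment of 14.2 and no GR site in any list. FOXO1 also overlapped, at a fold enrichment of 6.04, a GR site at +14.1 kb. That site stood at percentile 52 in cal. res. replicate 1 and at 17 in cal. res. replicate 2, at 14.2 in ctrl. replicate 1, and at 3.57 and 14.8 in CORT, and was not called in ctrl. replicate 2.

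**Figure D3:**
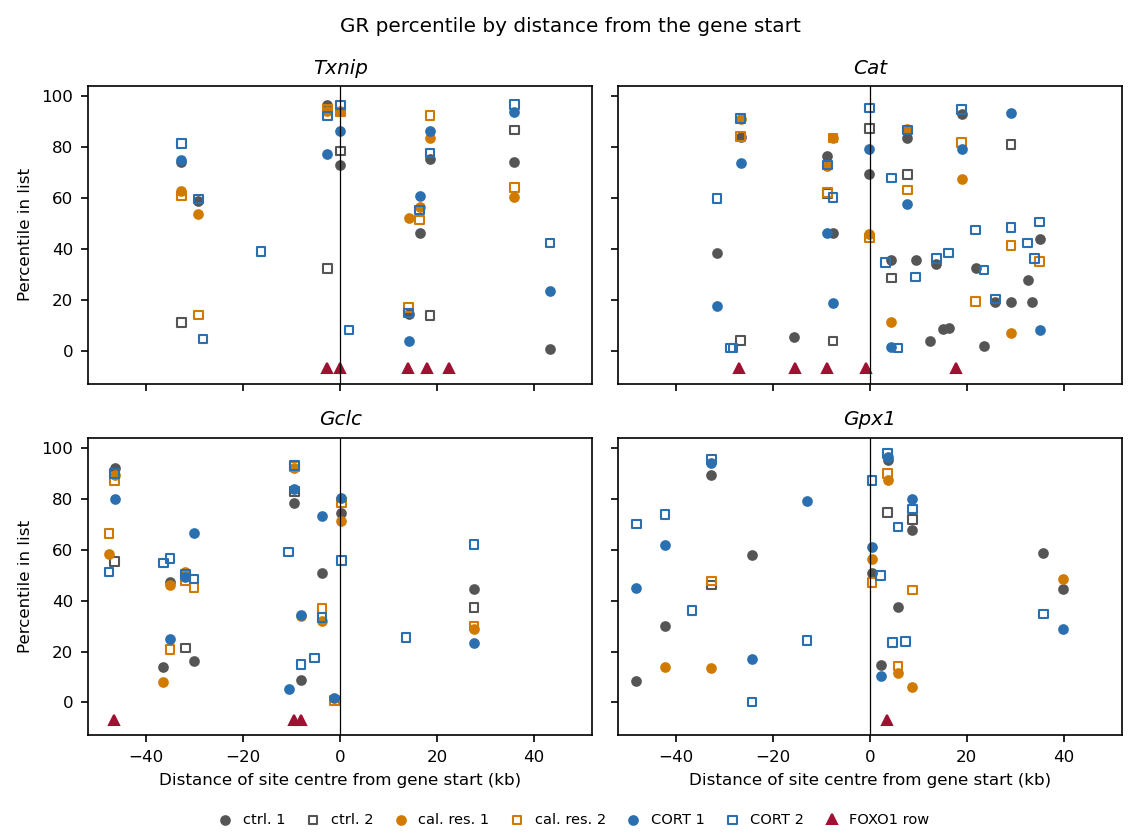
Percentile of GR fold enrichment within the list (vertical axis) against the distance of the site centre from the gene start in kb (horizontal axis, negative upstream) for Txnip, Cat, Gclc and Gpx1, with 1 marker per library and red triangles at FOXO1 peaks. At Txnip the high-ranked sites and the FOXO1 peaks cluster at the gene start and at -2.66 kb, and at Cat low-ranked sites seen in only a few lists fill the gene body.

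Catalase was the member with the most GR sites. The gene, ENSMUSG00000027187.10, lies on the minus strand of chr2:103453849-103485160, with 26 sites and 5 FOXO1 peaks, and for all 26 sites Cat was the nearest protein-coding start. Only 6 of them were held by all 3 groups, and 9 were seen in a single list. The site that differed most lay at -7.62 kb, chr2:103492521-103493042, outside any annotated gene. Its percentiles were 46.2 and 3.74 for ctrl., 83.7 and 83.5 for cal. res. and 18.5 and 60.1 for CORT. The fold enrichments there were 5.43 and 3.0 for ctrl., 11.0 and 9.05 for cal. res. and 4.22 and 6.16 for CORT. By percentile both cal. res. libraries were above the other 4. How many of all sites show such an order is not given, and this site was chosen after its values were seen. The difference of cal. res. from ctrl. was 2.17 with a standard error of 0.412 (limma, unadjusted p = 0.000852, adjusted p = 0.345) and that from CORT 2.09 (adjusted p = 0.153). These adjusted p-values equalled the smallest of all 8097 sites. The adjustment can give many sites the same value, so this was not shown to be the site that differed most of the 8097. When log2 fold enrichment centred on the list median was fitted in place of ranks, the difference from CORT was 1.65 with a standard error of 0.351 and passed (limma, adjusted p = 0.0252), among 239 of the 8097 sites that did, while that from ctrl. did not (adjusted p = 0.161). Over all alternatives tried, the adjusted p against CORT ran from 0.0252 to 0.729. At a q of at most 0.01 the site was no longer in all 6 lists and could not be fitted. FOXO1 had no peak at this site, and its window matched a C/EBP motif.

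Around that site other Cat sites ranked differently. The neighbour at -8.76 kb, which FOXO1 overlapped at a fold enrichment of 6.04, stood at 76.3 and 61.8 for ctrl., 72.4 and 62.2 for cal. res. and 46.3 and 72.9 for CORT, so that cal. res. lay within the range of ctrl. The promoter site of Cat, centred at -0.111 kb, had percentiles of 69.3 and 87.4 for ctrl., 45.8 and 44.2 for cal. res. and 79.2 and 95.3 for CORT. Here the cal. res. libraries were the lowest of the 6, with a difference of -0.844 from ctrl. (standard error 0.606, adjusted p = 0.675) and of -1.14 from CORT (limma, adjusted p = 0.407). The first of these was -0.0974 without ctrl. replicate 2 and -1.71 without ctrl. replicate 1. The difference from CORT was -0.651 without CORT replicate 2 and -2.87 with the name style as a term. A FOXO1 peak touched the same site, but its summit was 546 bp or more from every GR summit.

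At -26.6 kb Cat had another strong site, with percentiles of 84.0 and 3.99 for ctrl., 91.2 and 84.1 for cal. res. and 73.6 and 91.2 for CORT. Its difference between cal. res. and ctrl., 1.65 with a standard error of 0.609 (limma, unadjusted p = 0.0277, adjusted p = 0.469), came to 0.684 without ctrl. replicate 2 and 2.57 without ctrl. replicate 1. The highest mean percentile of Cat, 74.6 over the 6 lists (an absent peak counted as 0), was that of an intronic site at +7.76 kb. It stood at 83.7 and 69.3 for ctrl., 87.0 and 63.1 for cal. res. and 57.6 and 86.7 for CORT, and the ranges of all 3 groups overlapped. In the intron at +18.9 kb FOXO1 had its strongest Cat peak, with a fold enrichment of 10.6, and GR percentiles there were 92.8 in ctrl. replicate 1, 67.5 and 81.7 for cal. res. and 79.1 and 94.8 for CORT, with no peak in ctrl. replicate 2. The last FOXO1 peak of Cat, at -15.5 kb, met a GR region of ctrl. replicate 1 alone, at percentile 5.44.

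Gpx1 showed the highest-ranked GR site of the 10 genes. The gene, ENSMUSG00000063856.7, lies on the plus strand of chr9:108338903-108340343, with 15 sites, of which Gpx1 was the nearest protein-coding start for 4. The site at +3.69 kb, past the 3′ end of the gene, stood at percentiles 95.3 and 74.6 for ctrl., 87.4 and 90.0 for cal. res. and 96.3 and 97.8 for CORT, a mean of 90.2. It carried the only FOXO1 peak at Gpx1, with a fold enrichment of 10.1 and a summit 6 to 28 bp from the GR summits. The difference between cal. res. and ctrl. there was 0.037 with a standard error of 0.366 (limma, adjusted p = 0.981). A site at the gene start itself (+0.46 kb) had percentiles of 50.8 in ctrl. replicate 1, 56.2 and 47.2 for cal. res. and 61.2 and 87.2 for CORT, and was not called in ctrl. replicate 2.

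At -32.7 kb, in the promoter of Tcta, a site in the Gpx1 window ranked lower in both cal. res. libraries than in both CORT libraries. Percentiles were 89.5 and 46.2 for ctrl., 13.5 and 47.7 for cal. res. and 94.0 and 95.6 for CORT, so that ctrl. and cal. res. overlapped and CORT lay above both. The difference of cal. res. from CORT was -2.06 with a standard error of 0.48 (limma, adjusted p = 0.164), and on log2 fold enrichment -1.64 (limma, adjusted p = 0.0303, with 0.0303 to 0.722 over the alternatives tried). On log2 fold enrichment 239 of the 8097 sites passed between cal. res. and CORT. Against ctrl. the rank difference was -1.15 (limma, unadjusted p = 0.0447, adjusted p = 0.487), and it was -0.538 without cal. res. replicate 1. Of protein-coding starts, that of Tcta was the nearest.

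The superoxide dismutase genes had 9 and 5 sites. Sod1, ENSMUSG00000022982.10 on the plus strand of chr16:90220754-90226329, had no FOXO1 peak within 50 kb. Its promoter site stood at percentiles 64.1 and 36.4 for ctrl., 58.2 and 29.5 for cal. res. and 56.4 and 65.6 for CORT, and the ranges of all 3 groups overlapped. The best-ranked Sod1 site, at -23.3 kb in the promoter of the gene model Gm49704, had percentiles of 81.3 and 77.0 for ctrl., 75.8 and 37.3 for cal. res. and 68.0 and 79.5 for CORT. Neither site differed at an unadjusted p under 0.05 in any comparison.

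Sod2, ENSMUSG00000006818.5 on the plus strand of chr17:13006846-13040063, had 5 sites, and 3 of them lay nearer to the starts of Acat2 or Wtap. Its best-ranked site, at +1.35 kb beside an alternative start of the gene, was at percentiles 69.9 and 52.2 for ctrl., 54.0 and 51.1 for cal. res. and 80.1 and 60.2 for CORT. A FOXO1 peak of fold enrichment 5.12, at percentile 35.1 of its list, had its summit 14 to 85 bp from the GR summits. The fitted difference between cal. res. and ctrl. was -0.09 with a standard error of 0.477 (limma, adjusted p = 0.965).

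Gclc, which opens glutathione synthesis, had 15 sites. The gene, ENSMUSG00000032350.9, lies on the plus strand of chr9:77754535-77794485, and for all 15 sites it was the nearest protein-coding start. Cal. res. held 8 of them and CORT 10, against 3 for ctrl. The leading site lay at -9.45 kb, chr9:77744737-77745431, and its window is the one printed with both a GR element and a FOX match. Percentiles were 78.3 and 82.9 for ctrl., 92.1 and 92.7 for cal. res. and 84.1 and 93.2 for CORT, so that the ctrl. libraries were again the lowest. The difference between cal. res. and ctrl. was 0.778 with a standard error of 0.457 (limma, adjusted p = 0.589), and it was 0.221 without ctrl. replicate 1 and 1.26 without ctrl. replicate 2. FOXO1 was weak at this site, with a fold enrichment of 4.88 at percentile 27.9 of its list.

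Other Gclc sites included a strong one at -46.5 kb, in the promoter of the gene model Gm47789, with percentiles of 92.1 and 55.4 for ctrl., 89.4 and 87.2 for cal. res. and 80.1 and 90.0 for CORT and a FOXO1 fold enrichment of 4.48. The Gclc promoter site, at +0.24 kb, was called in every list but ctrl. replicate 2. There it stood at 74.3 in ctrl. replicate 1, 71.2 and 78.7 for cal. res. and 80.4 and 55.8 for CORT, and no FOXO1 peak overlapped it. The weakest FOXO1 peak of the gene, at -8.16 kb, had a fold enrichment of 4.34 and met a GR site that ranked no higher than percentile 34.5 in the 4 lists that had it.

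Both regulators of the pathway had a GR site at their own start. Nfe2l2, ENSMUSG00000015839.6 on the minus strand of chr2:75675513-75704641, had 14 sites, 9 of them in a single list. Its promoter site, at +0.489 kb, ranked high throughout, at percentiles 96.1 and 82.7 for ctrl., 89.0 and 82.6 for cal. res. and 91.3 and 96.2 for CORT. The cal. res. range lay almost within that of ctrl. and the fitted difference was -0.323 with a standard error of 0.36 (limma, adjusted p = 0.803). A FOXO1 peak of fold enrichment 5.31 overlapped the merged interval, but with a summit 1173 bp or more from the GR summits. At -18.5 kb a further FOXO1 peak, of fold enrichment 4.76, met a GR site called in 4 lists, at 24.8 in ctrl. replicate 1, 43.9 in cal. res. replicate 1, and 18.2 and 66.7 in CORT, and this window matched the FOX motif.

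Keap1, ENSMUSG00000003308.15 on the minus strand of chr9:21229730-21239361, had 11 sites. The GR site at its start, centred at +0.364 kb, was at percentiles 76.0 and 37.2 for ctrl., 15.8 and 19.3 for cal. res. and 47.7 for CORT replicate 1, and was not called in CORT replicate 2, the longest list. Cal. res. thus had the lowest values of the lists that had it, and since the site was missing from 1 list it was not fitted. The best-ranked Keap1 site, at -10.8 kb and nearer to the start of S1pr5, stood at 76.1 and 71.5 for ctrl., 82.2 and 70.1 for cal. res. and 41.2 and 84.8 for CORT, with a weak FOXO1 peak of fold enrichment 4.58. A stronger FOXO1 peak, with a fold enrichment of 9.39 at percentile 84.0, lay at -2.2 kb, where no GR list had a region. Its window, printed with the others, matched none of the 6 motifs. The last FOXO1 peak, at -26.7 kb in the promoter of Atg4d, had a fold enrichment of 5.10 and its summit was 663 bp or more from the GR summits.

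Txnrd1 and Nqo1, both NRF2 targets, were the members at which ctrl. held no site, and cal. res. held 1 at each. At Txnrd1, ENSMUSG00000020250.10 on the plus strand of chr10:82833951-82897712, ctrl. had peaks at 9 and 0 sites, cal. res. at 3 and 1, and CORT at 9 and 10. CORT held 8 of its 12 sites. The best-ranked, at +25.2 kb beside an internal start of the gene, stood at 23.8 in ctrl. replicate 1, 46.9 and 41.8 for cal. res. and 59.7 and 83.4 for CORT. No site was centred within 1 kb of the gene start, but a second site of the internal start, at +26.6 kb, was called in 4 lists. FOXO1 had no peak within 50 kb.

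At Nqo1, ENSMUSG00000003849.8 on the minus strand of chr8:107388225-107403206, ctrl. had peaks at 5 and 0 sites, cal. res. at 1 and 1, and CORT at 3 and 5. The single site held by cal. res. lay at -2.85 kb, at percentiles 20.3 and 34.2, and was also called in ctrl. replicate 1, at 33.7, and in CORT replicate 2, at 20.2. At the gene start a region was called in CORT replicate 2 alone, at percentile 51.8. The site with the highest mean percentile, 22.0, lay at -21.6 kb in the promoter of Nob1, and no FOXO1 peak fell within 50 kb. Ctrl. replicate 2, with no peak at either gene, was the shortest list.

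**Figure D4:**
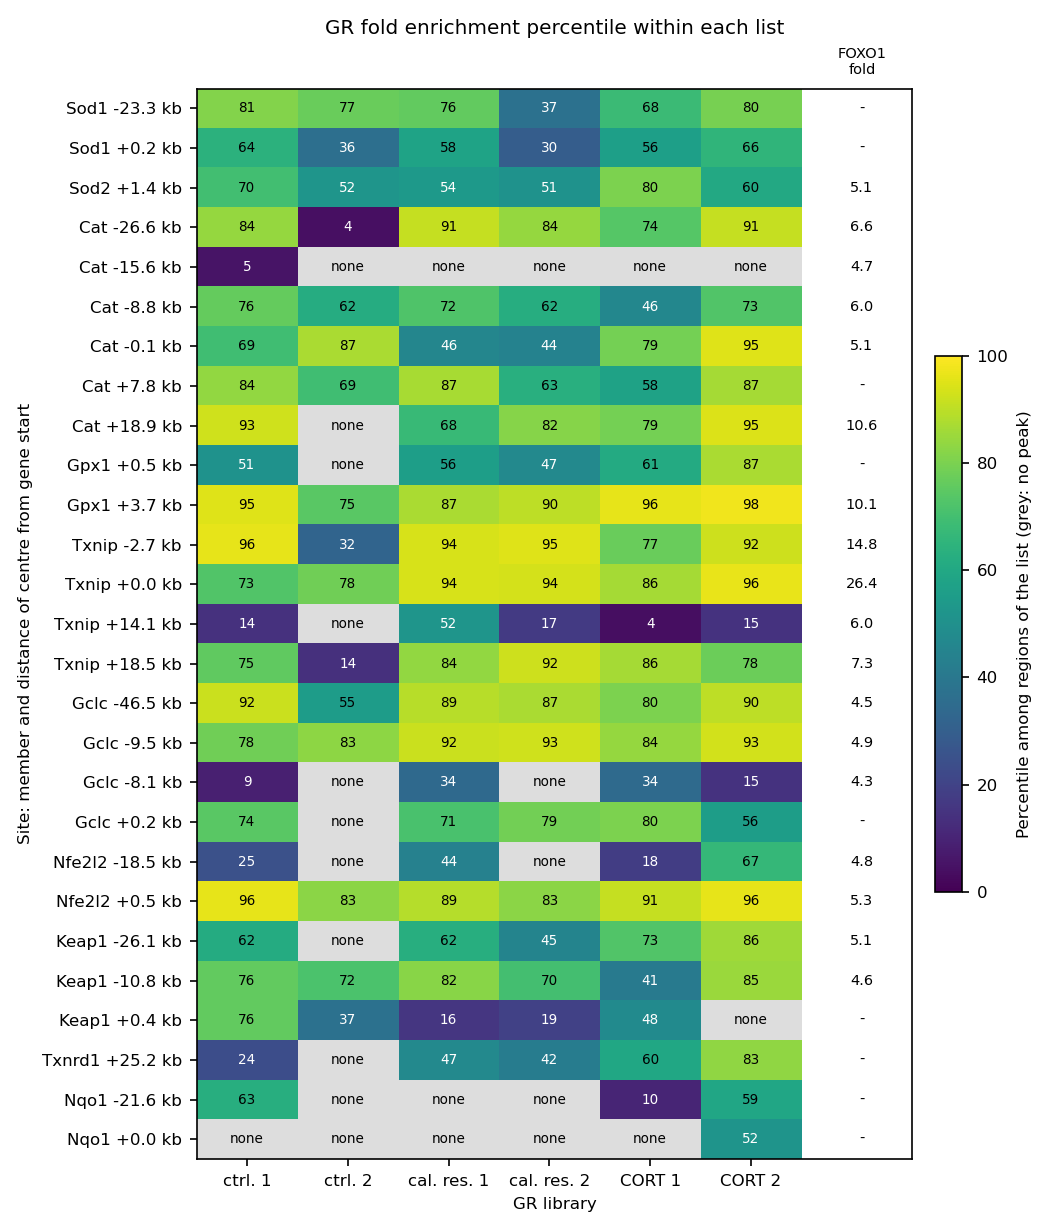
Percentile of GR fold enrichment within each of the 6 lists (columns) for the 27 sites that lead a gene, lie within 1 kb of its start or overlap FOXO1 (rows, with the distance of the centre from the gene start), on a colour scale from 0 to 100, with grey where no peak was called and the FOXO1 fold enrichment at the right. The Txnip promoter has the highest FOXO1 value, 26.4, and 15 of the 27 sites have a peak in all 6 lists.

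FOXO1 peaks and GR sites met at 18 of the 126 member sites (14.3%, against 13.9% of all sites), spread over 7 genes. They were 5 at Cat, 4 at Txnip, 3 at Gclc, 2 each at Nfe2l2 and Keap1, and 1 each at Gpx1 and Sod2. At 13 of the 18 the FOXO1 summit lay within 100 bp of a GR summit, and 8 remained when only the stronger 50% of FOXO1 rows were used. Of the 20 FOXO1 peaks near the members, 18 met a GR site, and the exceptions were those at +22.4 kb of Txnip and -2.2 kb of Keap1. For these counts of summits, stronger rows and FOXO1 peaks the share over the whole lists is not given. They are therefore not shown to be particular to the members. The sites shared with FOXO1 were held widely: 12 by ctrl., 15 by cal. res., 17 by CORT and 12 by all 3 groups, against 12 of the 108 sites without FOXO1 held by all 3. Over all sites, 57.5% of those with FOXO1 and 9.01% of those without were held by all 3 groups.

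GR ranked higher at the sites shared with FOXO1 in each of the 6 lists, the ctrl. and CORT lists included. The median percentile of member sites with FOXO1 was 75.8 and 66.7 for ctrl., 82.2 and 82.6 for cal. res. and 79.1 and 90.0 for CORT. Without FOXO1 the medians were 38.5 and 45.5 for ctrl., 40.0 and 44.2 for cal. res. and 46.0 and 48.5 for CORT. All sites showed the same separation, with medians from 69.3 to 84.5 with FOXO1 and from 39.1 to 43.4 without, so it was not shown to be particular to these genes. FOXO1 was measured in cal. res. livers only, and whether it occupied these sites in ctrl. or CORT livers is not known from these data.

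**Figure D5:**
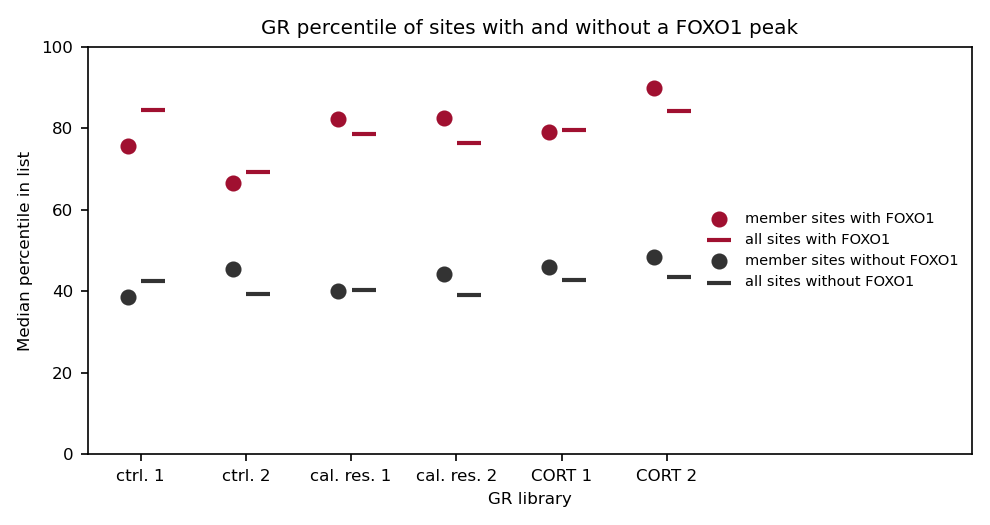
Median percentile of GR fold enrichment within the list (vertical axis) in each of the 6 GR libraries (horizontal axis), for member sites (circles) and all sites (bars) with a peak in that list, in red where a FOXO1 peak overlaps and in dark grey where none does. The red medians of the member sites run from 66.7 to 90.0 and the grey from 38.5 to 48.5.

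At the level of genes, 8 of the 10 members had a site held by ctrl. within 50 kb (48.5% of 21911 protein-coding genes), 10 a site held by cal. res. (47.2%), 10 a site held by CORT (60.9%) and 8 a site held by all 3 groups (37.9%). A GR site that overlapped FOXO1 was present at 7 members (31.2% of coding genes). It was also present at 73.8% of the 61 further genes described below and at all 6 landmark genes of hepatocytes. Txnrd1 and Nqo1 were the members without a site held by ctrl., and these with Sod1 the members without FOXO1. The median number of held sites per member was 3 in ctrl., 4 in cal. res. and 7.5 in CORT, against 0, 0 and 1 over all coding genes. No allowance was made for how many genes lie around a member.

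A list of 61 further genes of glutathione, thioredoxin and peroxiredoxin metabolism, NADPH supply, conjugation and NRF2 control, with arrestin-domain relatives of Txnip, had 505 distinct sites within 50 kb. Sites held by ctrl., cal. res. and CORT were found at 52, 52 and 54 of the 61 genes, sites held by all 3 groups at 46, and sites overlapping FOXO1 at 45. FOXO1 overlapped 98 of the 505 sites, against 13.9% of all sites. In the limma fit 96 of the 505 sites had a peak in all 6 lists and 0 were called in each comparison. At an unadjusted p under 0.05, 4 were higher and 8 lower in cal. res. than in ctrl., 6 higher and 4 lower in CORT than in ctrl., and 6 higher and 11 lower in cal. res. than in CORT. Over all fitted sites, 9.88%, 11.3% and 15.8% differed in these comparisons, both directions together. Both ctrl. libraries and neither cal. res. library had a peak at 11 of the 505 sites (1.75% of all sites), and the reverse held at 5 (0.842% of all sites). Both CORT libraries and neither cal. res. library had a peak at 46 of the 505 sites (9.72% of all sites), and the reverse held at 4 (0.348% of all sites). The same directions were thus seen over all sites. Slc7a11, the cystine importer, and Prdx4, Txnrd2, Sod3 and Gpx8 had no site held by any of the 3 groups.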

How the data were processed

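GR binding was measured by ChIP-seq in 6 mouse liver libraries, and FOXO1 binding in 2 cal. res. libraries that the authors merged before calling. Per the study's methods, the authors aligned paired reads to mm10 with BWA, removed duplicates and multiply mapping reads, called narrow peaks with MACS2 and filtered them for blacklisted regions with bedtools. GR peaks were called in each library at a q of 0.1 and FOXO1 peaks at 1e-05. Whether an input control was used is not given in the sources used here. The deposited lists hold the caller's integer score, the fold enrichment at the summit (a ratio to the local background), and −log10 of the p-value and of the q-value. The score was only read, not tested. Fold enrichment is comparable within a list only.

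Rows with the same start and end were reduced to 1 region, regions of the 6 GR lists that overlapped by at least 1 bp were merged into sites, and a site was assigned to each gene (GENCODE M21) whose start lay within 50 kb of its centre. Several genes can share a site. Ranks within a list were turned into normal scores and fitted with limma 3.58.1 (R 4.3.3) over sites with a peak in all 6 lists, with the 3 groups in 1 fit and Benjamini-Hochberg adjustment at 0.05. Peaks per library were compared with two-sided exact permutation tests, and motifs were searched in 200 bp around the summit of the highest-ranked GR region. Python 3.11.15, pandas 2.3.3, SciPy 1.17.1 and pysam 0.24.0 were used, and the fit was tested on simulated data.

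The members, the gene lists and the tests were chosen with earlier results of these data known. Sites named were, for each member, the one with the highest mean percentile (an absent peak counted as 0), those within 1 kb of the gene start, those overlapping FOXO1, those called, and those differing in presence. The sites of Cat at -7.62 and +29.1 kb, Txnip at +35.9 kb, Gpx1 at -32.7 kb, Txnrd1 at +26.6 kb and Nqo1 at -2.85 kb, and those named for a motif, were added after their values were seen. The study's methods call the 2 libraries of a group biological replicates, and p-values rest on the spread between these few libraries. Alternatives varied the q-value, list length, ranking measure, window, overlap rule, group rule and the libraries included.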

Additional observations from a re-analysis of the deposited data

How the results depend on the processing

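Presence and held counts at member sites depended on list length and on single libraries, and limma calls on the measure fitted. At a q of at most 1e-05, 80 member sites were left. Ctrl. held 15 of them, cal. res. 27 and CORT 42, and 9 differed in presence between cal. res. and CORT (12.7% of all sites). With equal regions per list, cal. res. held 27 of 57 member sites and CORT 24. Presence differed there at 7 between cal. res. and ctrl. (8.83% of all sites) and at 6 between cal. res. and CORT (11.2%). With log2 fold enrichment fitted in place of ranks, limma called 2 member sites between cal. res. and CORT, at Cat -7.62 kb and Gpx1 -32.7 kb. They were among 239 of the 8097 sites called in that fit. Within 25 kb there were 73 member sites, with 19 held by ctrl. and 38 by CORT. Of the 73, 1 differed in presence between cal. res. and ctrl. (2.59% of all sites) and 7 between cal. res. and CORT (10.1%). Within 100 kb there were 203 member sites, of which 45 were held by ctrl. and 31 overlapped FOXO1. Of the 203, 4 differed in presence between cal. res. and ctrl. (2.59% of all sites) and 11 between CORT and ctrl. (4.57%). With a peak in either library enough, 93 of the 126 sites were held by ctrl. and 113 by CORT. Presence then differed at 40 between cal. res. and ctrl. (33.5% of all sites) and at 46 between CORT and ctrl. (42.7%). Between cal. res. and CORT it differed at 52 (45.5%). The comparison of cal. res. with ctrl. turned in direction, with 4 sites in cal. res. alone and 36 in ctrl. alone. The stronger 50% of FOXO1 rows overlapped 8 sites. Within the name styles, an alternative chosen after seeing the data, 17 sites differed between cal. res. and ctrl. (16 and 1) and 20 between CORT and ctrl. (8 in CORT alone and 12 in ctrl. alone). Within a style, ctrl. needs a peak in 1 library and the other group in both, so these counts give no direction. Leaving out 1 library gave 29 to 91 sites held by ctrl. (91 without ctrl. replicate 2), 42 to 55 by cal. res. and 66 to 108 by CORT (108 without CORT replicate 1). Presence differed at 2 to 38 sites between cal. res. and ctrl. (38 without ctrl. replicate 2, of which 35 in ctrl. alone), at 7 to 39 between CORT and ctrl. (39 without ctrl. replicate 1) and at 15 to 50 between cal. res. and CORT (50 without CORT replicate 1). Where these largest counts were found, 28.4%, 27.7% and 36.7% of all sites differed. A group reduced to 1 library needs fewer peaks to hold a site, which moves these counts by construction. Rank calls stayed at 0 when any library was left out, and none of the rank differences followed through the alternatives (at Cat, Txnip, Gpx1 and Gclc sites) changed sign where it could be fitted. Cat -7.62 kb could not be fitted at a q of at most 0.01 or 1e-05 or with equal regions, since a peak was then missing from a list. With the replicate number as a block, limma called 0 sites, the Cat -7.62 kb difference had an adjusted p of 0.489 against ctrl. and 0.225 against CORT, and the smallest exact p was 0.5. The numbers did not pair the libraries: deviations of same-numbered libraries correlated at -0.0966 (ctrl. and cal. res.), -0.123 (ctrl. and CORT) and 0.1 (cal. res. and CORT) over 8097 sites. List length limits what can be read from a missing peak: a peak not called in ctrl. replicate 2, the shortest list, cannot be told from a weak one.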
